A study of Mus musculus with 8 samples.

Results

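The genes described here carry oxygen or handle iron and heme, the iron-containing pigment of hemoglobin and myoglobin. The 10 genes were chosen by symbol from the table of normalized counts, which lists 55401 genes, and all 10 were among the 13677 genes tested, whose normalized counts averaged at least 10 over the 8 muscles. They are the globins *Hba-a1* and *Hbb-bt*, the erythroid heme synthesis enzyme *Alas2*, myoglobin (*Mb*), heme oxygenase 1 (*Hmox1*), the ferritin subunits *Fth1* and *Ftl1*, the transferrin receptor *Tfrc*, the iron exporter *Slc40a1* and ceruloplasmin (*Cp*). RNA was sequenced from whole tibialis anterior (TA) muscles of male mice that were 6 months old. One group was 4 wild-type muscles (WT) of the C57/Bl6 strain, and the other was 4 muscles of *mdx5cv* mice, a model of Duchenne muscular dystrophy on the B6 background that carries a mutation in *Dmd*, the gene of dystrophin. Neither group carries another labelled allele or treatment. The labels do not say whether each muscle came from a separate mouse, so p-values measure the spread between these muscles.

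Oxygen in blood is carried by hemoglobin in red blood cells, whereas myoglobin holds oxygen inside muscle fibers, most of all in oxidative ones. Cells take up iron bound to transferrin through the transferrin receptor, store it in shells made of ferritin heavy and light chains, and release it through ferroportin, the product of *Slc40a1*, with the help of copper oxidases such as ceruloplasmin. Heme is broken down by heme oxygenase to iron, carbon monoxide and biliverdin, and macrophages that clear dying red cells and damaged tissue recycle much of the iron of the body.

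Between 13175524 and 14921057 reads per muscle were recovered from the deposited values. *Dmd* was lower in all 4 *mdx5cv* muscles (3964 ± 388 normalized counts, SD, n = 4) than in the WT muscles (6954 ± 857, SD, n = 4). Genes of skeletal muscle were abundant in every library, with *Ckm*, *Acta1* and 4 other markers summing to between 494655 and 784577 normalized counts. Liver genes, by contrast, should be near 0 in muscle. The sum of 4 hepatocyte genes was 262 normalized counts in *mdx5cv* replicate 4, 48.7 in WT replicate 4, 20.4 in *mdx5cv* replicate 1 and at most 2.19 in the other 5 muscles. Values without both replicates 4 are therefore given where they change a call. All 10 macrophage markers, all 6 regenerating fiber markers and 4 of 6 fibroblast markers were higher in *mdx5cv* muscles, and all 6 endothelial markers were lower. With every muscle scaled to the same total, 2 of the 6 endothelial markers were called lower. In bulk tissue, fewer cells of a type and less RNA per cell cannot be told apart.

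Of the 10 genes, 5 have in their mRNA an iron-responsive element, a short hairpin that iron regulatory proteins bind when iron is scarce. Bound at the start of the mRNA, in the 5′ UTR, the proteins block translation, and bound in the 3′ UTR of the *Tfrc* mRNA they protect it from decay. The elements were searched in the sense strand of GENCODE M21 transcripts as a C, any 5 bases, the loop CAGTGN and 5 bases that pair with the first 5, with G and U pairs allowed. They are shown because they divide the genes into those whose translation and those whose mRNA level is tied to iron by this route. Each is given 5′ to 3′ as DNA letters over 29 bases, with the loop in capitals.
Fth1 5′ UTR: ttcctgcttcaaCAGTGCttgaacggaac
Ftl1 5′ UTR: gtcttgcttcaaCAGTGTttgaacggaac
Alas2 5′ UTR: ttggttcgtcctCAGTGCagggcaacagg
Slc40a1 5′ UTR: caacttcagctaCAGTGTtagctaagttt
Tfrc 3′ UTR element 1: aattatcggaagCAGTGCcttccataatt
Tfrc 3′ UTR element 2: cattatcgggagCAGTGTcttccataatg
Tfrc 3′ UTR element 3: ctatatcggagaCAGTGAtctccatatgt
Tfrc 3′ UTR element 4: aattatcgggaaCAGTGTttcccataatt

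In the GRCm38 build these stretches are at chr19:9982732-9982760 on the plus strand for *Fth1*, chr7:45459779-45459807 on the minus strand for *Ftl1* and chr1:45925465-45925493 on the minus strand for *Slc40a1*. The *Alas2* element spans an exon junction, with its outer bases at chrX:150547458 and chrX:150552149 on the plus strand. The 4 elements of *Tfrc* lie on the plus strand of chromosome 16, starting at 32631219, 32631598, 32631663 and 32631710. The elements of the 2 ferritin genes are the same at 26 of 29 bases. The pattern was present in transcripts of 294 of 21901 protein-coding genes (1.34%), and it was not found in *Hba-a1*, *Hbb-bt*, *Mb*, *Hmox1* or *Cp*. These RNA data hold no measure of translation, so what the 5′ UTR elements did could not be read from them.

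The comparison of *mdx5cv* with WT muscles asked which of these genes differ in dystrophic muscle at 6 months. With limma and an adjusted p under 0.05, *Hmox1*, *Fth1* and *Ftl1* were higher in *mdx5cv* muscles and *Hba-a1*, *Alas2*, *Mb*, *Slc40a1* and *Cp* were lower, while *Hbb-bt* and *Tfrc* were not called. The 3 higher and 5 lower genes of 10 compare with 20.9% higher and 20.1% lower among all genes tested. With a log2 fold change of at least 1 in size as well, 2 were higher (*Ftl1* and *Hmox1*) and 3 lower (*Mb*, *Slc40a1* and *Alas2*), where 10.3% and 3.27% of all genes tested passed in those directions. The groups did not overlap for 2 higher genes (*Fth1* and *Ftl1*) and 3 lower ones (*Mb*, *Slc40a1* and *Cp*), beside 20.3% and 19.8% of all genes tested. The median log2 fold change of the 10 genes was −0.66, against 0.00 for all genes tested. Fold changes are on the log2(normalized count + 1) scale and are *mdx5cv* minus WT. Scaling every muscle to the same total moved the median of all genes to 0.36, or to 0.21 with genes of the mitochondrial genome left out, and the number of lower genes was then 3.

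**Figure D1:**
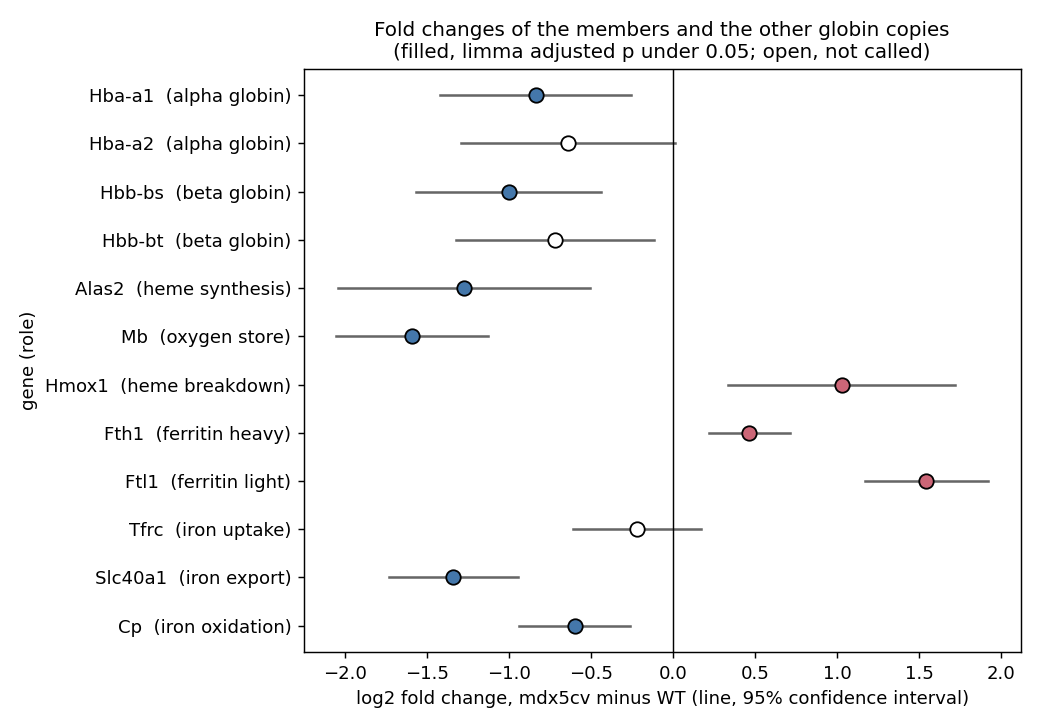
Log2 fold changes of the 10 genes and of the other adult globin copies *Hba-a2* and *Hbb-bs*, with 95% confidence intervals from limma (n = 4 muscles per group). The 3 red points (*Hmox1*, *Fth1*, *Ftl1*) lie to the right of 0, and *Tfrc*, at −0.22, has an interval that spans 0.

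Of the red cell genes, *Hba-a1*, *Alas2* and the globin copy *Hbb-bs* were called lower, and *Hbb-bt* and the copy *Hba-a2* were not called. *Hba-a1* (chr11:32283511-32284465, plus strand) encodes the alpha chain of adult hemoglobin. Its normalized counts were 227, 212, 136 and 221 in WT replicates 1 to 4 and 80.6, 176, 143 and 68.7 in *mdx5cv* replicates 1 to 4. WT replicate 3 was below *mdx5cv* replicates 2 and 3, so the groups overlapped, and *mdx5cv* replicates 1 and 4 were the lowest muscles. The log2 fold change was −0.84 ± 0.27 (SE), or 1.78-fold lower, with an adjusted p of 0.0246 from limma. This call was near its limit. It was lost without WT replicate 1, 2 or 4 (adjusted p of 0.0711, 0.0548 and 0.0594), without *mdx5cv* replicate 1 or 4 (0.0763 and 0.0752) and without both replicates 4 (0.137).

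*Hbb-bt* (chr7:103812524-103813996, minus strand) encodes a beta chain of adult hemoglobin. It had 68.8, 48.3, 33.2 and 39.2 normalized counts in the WT muscles and 16.7, 37.7, 30.6 and 28.8 in the *mdx5cv* muscles. The groups overlapped through WT replicate 3, which was below *mdx5cv* replicate 2. The log2 fold change was −0.72 ± 0.28 (SE) with an adjusted p of 0.0552, which missed the threshold in limma and passed it in DESeq2 (adjusted p of 0.0485), without WT replicate 3 (0.0392) and without *mdx5cv* replicate 2 (0.0323). Between 18 and 60 reads per muscle lay behind these values.

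The globins have near-identical copies, so the split of reads between them is uncertain. The transcripts of *Hba-a1* and *Hba-a2* were identical at 99.8% of 538 aligned bases, and those of *Hbb-bs* and *Hbb-bt* at 92.7% of 626. The copy *Hbb-bs*, another beta chain, fell by 1.0 ± 0.26 (SE) on the log2 scale (adjusted p of 0.00812), from 624 ± 205 to 314 ± 114 normalized counts (SD, n = 4). The copy *Hba-a2* had a log2 fold change of −0.64 ± 0.30 (SE) with an adjusted p of 0.108. Sums over the copies do not depend on the split, although any reads dropped in counting because they match both copies would be missing from them. The 2 alpha genes summed to between 197 and 355 normalized counts in WT and between 102 and 262 in *mdx5cv* muscles, which overlap. The 2 beta genes summed to between 468 and 880 in WT and between 231 and 453 in *mdx5cv* muscles, which do not.

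*Alas2* (chrX:150547375-150570638, plus strand) encodes the first enzyme of heme synthesis in red cell precursors. Its normalized counts were 49.3, 42.8, 29.9 and 53.0 in WT and 12.04, 31.1, 25.2 and 8.79 in *mdx5cv* muscles. Here too WT replicate 3, the lowest WT muscle, was below *mdx5cv* replicate 2, and *mdx5cv* replicates 1 and 4 were the lowest of all. *Alas2* was 2.42-fold lower, with a log2 fold change of −1.27 ± 0.36 (SE) and an adjusted p of 0.0118. Without both replicates 4 it was −0.88 with an adjusted p of 0.0697. These values rest on between 11 and 50 reads per muscle.

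Markers of whole erythroid cells were near 0 in every muscle. Of 7 such markers in the table, none reached the mean of 10 normalized counts needed for a test, and their sum ranged from 5.53 to 17.2 in WT and from 13.2 to 24.8 in *mdx5cv* muscles. The red cell anion exchanger *Slc4a1* had 4.16 ± 2.89 normalized counts in WT and 1.37 ± 1.23 in *mdx5cv* muscles (SD, n = 4), and the erythroid factor *Gata1* had 0 reads in all 8. What part a different amount of blood in the muscles had in the globin values was not tested.

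The promoters of the 3 red cell genes are shown because WT replicate 3 was the lowest WT muscle and *mdx5cv* replicate 2 the highest *mdx5cv* muscle for each of them, although the other extremes differed. *Cp*, which is not a red cell gene, had the same lowest WT and highest *mdx5cv* muscle, so these extremes were not particular to red cell genes. The sequences are the 150 bases before the RefSeq start site (GRCm38.p6), 5′ to 3′ on the strand of the gene, and capitals mark 4 motifs on either strand, GATAA (the GATA motif), CACCC (the CACC box), CCAAT (the NF-Y motif) and TATAA (the TATA box).
Hba-a1: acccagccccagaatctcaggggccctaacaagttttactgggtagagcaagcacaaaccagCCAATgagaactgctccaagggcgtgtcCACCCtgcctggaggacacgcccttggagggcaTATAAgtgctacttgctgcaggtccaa
Hbb-bt: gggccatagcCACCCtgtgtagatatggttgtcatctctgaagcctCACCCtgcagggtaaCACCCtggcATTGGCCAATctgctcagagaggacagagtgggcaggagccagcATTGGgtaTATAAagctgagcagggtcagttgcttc
Alas2: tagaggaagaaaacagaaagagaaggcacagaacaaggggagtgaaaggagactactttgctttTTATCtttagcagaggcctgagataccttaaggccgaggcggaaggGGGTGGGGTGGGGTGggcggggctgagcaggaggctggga

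They lie at chr11:32283522-32283671, chr7:103813924-103814073 and chrX:150547267-150547416. RefSeq places these starts further downstream than GENCODE M21, the source of the gene coordinates given above. The *Hba-a1* window therefore lies inside the GENCODE gene, and the other 2 windows overlap the start of theirs. CACCC, the core of the CACC box read by erythroid Krüppel-like factor, occurs once in the *Hba-a1* window and 3 times in each of the other 2, and 37.4% of all 32851 promoter windows of this length hold it. TATAA occurs once in each globin window (14.2% of windows hold it), and CCAAT occurs once in *Hba-a1* and 3 times in *Hbb-bt* (24.5%). GATAA, a motif of GATA factors, occurs once, in the *Alas2* window (13.3%). Some of the capitals in *Hbb-bt* and *Alas2* are adjoining or overlapping matches. A match is a description of the letters only.

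**Figure D2:**
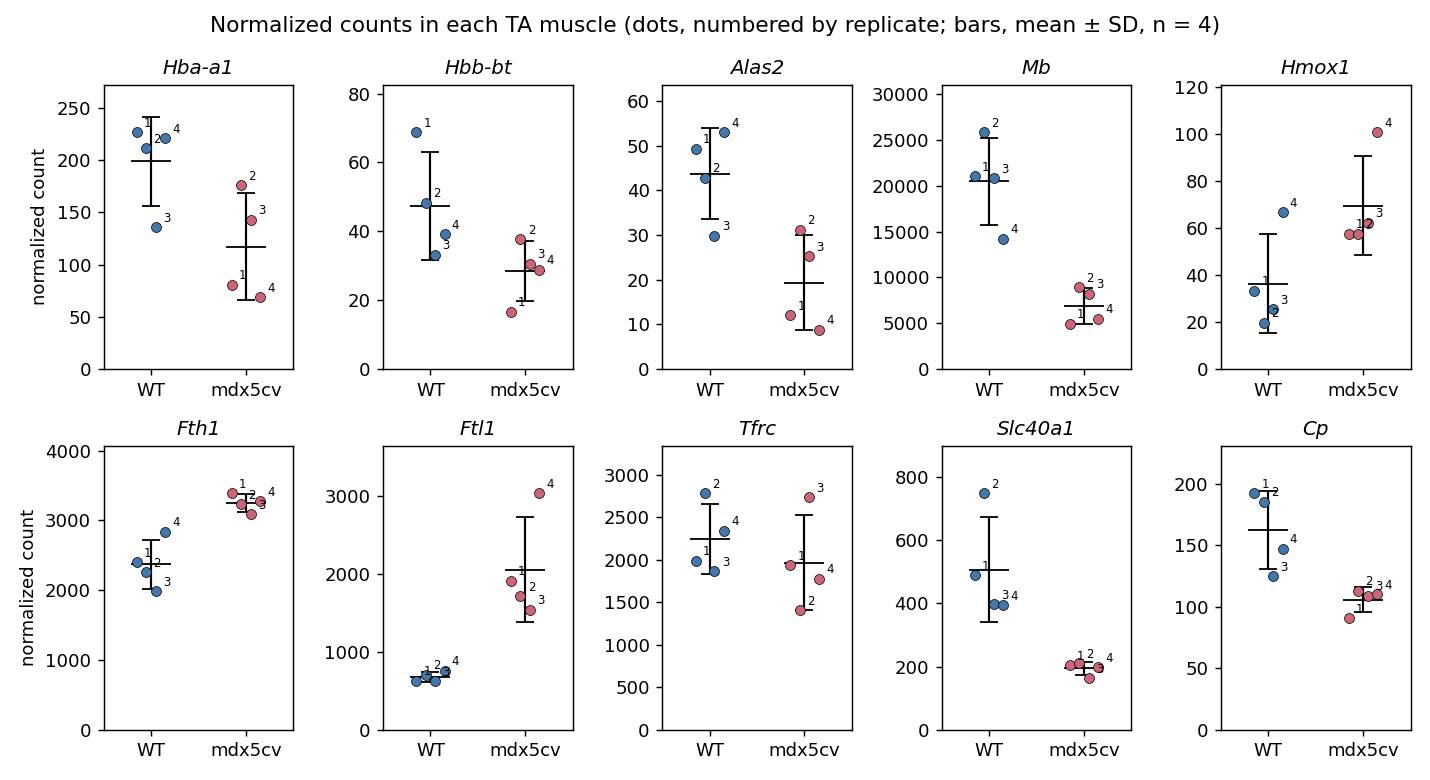
Normalized counts (vertical axes, each from 0) of the 10 genes in each TA muscle, with dots numbered by replicate and bars for the mean ± SD of 4 muscles per group. For *Mb* all 4 *mdx5cv* muscles lie at 8913 or below and all 4 WT muscles at 14248 or above, whereas for *Tfrc* the groups are mixed.

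*Mb* was the gene of this set with the largest fall. *Mb* (chr15:77015487-77050670, minus strand) had 21081, 25869, 20819 and 14248 normalized counts in WT and 4942, 8913, 8198 and 5472 in *mdx5cv* muscles. Every *mdx5cv* muscle was below every WT muscle, and *mdx5cv* replicates 1 and 4 were again the lowest. Myoglobin mRNA was 3.01-fold lower, with a log2 fold change of −1.59 ± 0.21 (SE) and an adjusted p of 8.97e-05 in limma. The call held under all 20 alternative settings, which gave log2 fold changes between −1.75 and −1.23.

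Fiber type markers are given beside *Mb* because myoglobin is richest in oxidative fibers. Of 6 markers of slow and oxidative fibers, 3 were higher and 2 lower in *mdx5cv* muscles, beside 20.9% and 20.1% of all genes tested. *Myh2*, the myosin of fast oxidative fibers, fell by 1.54 on the log2 scale (adjusted p of 0.0241), and it had 714 normalized counts in *mdx5cv* replicate 1 against 3955 to 5751 in the other *mdx5cv* and 6351 to 11158 in the WT muscles. The ventricular and slow light chain *Myl3* fell by 3.56 (adjusted p of 0.000326). The troponins *Tnnt1*, *Tnni1* and *Tnnc1* rose, by 1.68, 4.15 and 2.68. The summed level of the 6 ranged from 6864 to 11596 in WT and from 1225 to 6188 in *mdx5cv* muscles. Most of this sum was *Myh2*, with a mean of 8952 beside 9420 for the sum in WT, and 3859 beside 4531 in *mdx5cv* muscles. Of 5 markers of fast glycolytic fibers, 3 were lower and 0 higher, and of 6 general skeletal muscle markers 2 were lower and 0 higher. Under equal totals 4 slow and oxidative markers were higher and 1 lower. For the fast glycolytic markers 0 were then higher and 1 lower, and for the general markers 1 was higher and 1 lower. The part of fiber type in the fall of *Mb* was not tested.

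*Hmox1* (chr8:75093621-75100589, plus strand) encodes the inducible enzyme that opens the heme ring. It had 33.2, 19.7, 25.4 and 66.7 normalized counts in WT and 57.4, 57.5, 62.1 and 100.7 in *mdx5cv* muscles. WT replicate 4 was above 3 of the 4 *mdx5cv* muscles, and without it the groups would not overlap. *Hmox1* was 2.04-fold higher, with a log2 fold change of 1.03 ± 0.32 (SE) and an adjusted p of 0.0206. The adjusted p was 0.0591 without WT replicate 2, 0.0619 without WT replicate 3 and 0.0674 without *mdx5cv* replicate 4, and it was 0.00261 (log2 fold change 1.18) without both replicates 4. The constitutive enzyme *Hmox2* had a log2 fold change of −0.08 with an adjusted p of 0.677.

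Both ferritin chains rose, the light chain more than the heavy. *Ftl1* (chr7:45457944-45459884, minus strand) had 630, 707, 625 and 758 normalized counts in WT and 1913, 1715, 1540 and 3038 in *mdx5cv* muscles. The 4 WT muscles were close together, and *mdx5cv* replicate 4 was well above the other 3. *Ftl1* was 2.92-fold higher, with a log2 fold change of 1.54 ± 0.17 (SE) and an adjusted p of 2.29e-05, and the alternatives ranged from 1.34 to 1.9.

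*Fth1* (chr19:9980598-9985098, plus strand), the chain that oxidizes the iron on entry, had 2403, 2256, 1981 and 2836 normalized counts in WT and 3394, 3235, 3086 and 3279 in *mdx5cv* muscles. The *mdx5cv* values were tight, with all 4 above the highest WT muscle. The rise was 1.38-fold, with a log2 fold change of 0.47 ± 0.11 (SE) and an adjusted p of 0.00563, and it was called under all 20 alternatives. Ferritin genes have processed copies in the genome, and the 14 such rows of the table had at most 14.8 normalized counts in any muscle.

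Macrophages are rich in ferritin and *Hmox1*, and their markers were higher in the same group. The 10 macrophage markers, from *Adgre1* to *Trem2*, all rose, with log2 fold changes between 1.146 and 4.96. Their sum ranged from 614 to 903 normalized counts in WT, and was 6357, 5363, 4674 and 11411 in *mdx5cv* replicates 1 to 4. Over these 4 muscles *Ftl1* had the same order as the marker sum, with replicate 4 highest and replicate 3 lowest, while *Fth1* was highest in replicate 1 and *Hmox1* was highest in replicate 4 but lowest in replicate 1. Neutrophil markers were near 0 in all muscles, with a sum of at most 7.68. The part of macrophage RNA in the rise of *Ftl1*, *Fth1* and *Hmox1* was not tested.

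The receptor for iron uptake was not called. *Tfrc* (chr16:32608920-32632794, plus strand) had 1986, 2784, 1863 and 2340 normalized counts in WT and 1932, 1407, 2736 and 1776 in *mdx5cv* muscles. The groups overlapped almost fully, with *mdx5cv* replicate 3 second only to WT replicate 2. The log2 fold change was −0.22 with a 95% confidence interval from −0.61 to 0.17 and an adjusted p of 0.364. It was not called under any of the 20 alternatives, and its sign turned to 0.14 under equal totals.

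Iron export genes were lower. *Slc40a1* (chr1:45908068-45926523, minus strand) encodes ferroportin, the only known exporter of iron from mammalian cells. It had 489, 750, 397 and 394 normalized counts in WT and 205, 211, 163 and 197 in *mdx5cv* muscles. All 4 *mdx5cv* muscles lay within a narrow range below the WT muscles, of which replicate 2 was highest. *Slc40a1* was 2.53-fold lower, with a log2 fold change of −1.34 ± 0.18 (SE) and an adjusted p of 0.000102, and it stayed called under all 20 alternatives.

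*Cp* (chr3:19957054-20009145, plus strand) encodes ceruloplasmin, which oxidizes the exported iron so that transferrin can bind it. It had 193, 185, 125 and 147 normalized counts in WT and 90.8, 113, 109 and 110 in *mdx5cv* muscles. The highest *mdx5cv* muscle was below the lowest WT muscle by a small margin. *Cp* was 1.51-fold lower, with a log2 fold change of −0.60 ± 0.16 (SE) and an adjusted p of 0.00824. Scaling to equal totals lowered the difference to −0.24 (adjusted p of 0.242), and to −0.39 (0.0821) with the mitochondrial genome left out.

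*Slc40a1* is also a gene of macrophages and of blood vessel walls. The macrophage markers rose, as given above, whereas *Slc40a1* fell. The 6 endothelial markers, *Pecam1*, *Cdh5*, *Tek*, *Kdr*, *Cldn5* and *Emcn*, all fell, by 0.61 to 0.88 on the log2 scale, and their sum ranged from 2562 to 3117 in WT and from 1579 to 2015 in *mdx5cv* muscles. Under equal totals 2 of the 6 were called lower, and 5 were with the mitochondrial genome left out. *Cd163*, the receptor by which resident macrophages take up hemoglobin bound to haptoglobin, fell as well, from 83.6 ± 20.7 to 28.6 ± 4.58 normalized counts (SD, n = 4), with a log2 fold change of −1.49 ± 0.21 (SE) and an adjusted p of 0.000131. What part the makeup of the tissue had in these changes was not tested.

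Ratios within a muscle do not depend on how muscles are scaled. The ratio of *Ftl1* to *Fth1* was 0.290 ± 0.0287 in WT and 0.630 ± 0.200 in *mdx5cv* muscles (SD, n = 4), a log2 difference of 1.08. The lowest *mdx5cv* ratio, 0.499 in replicate 3, was above the highest WT ratio of 0.315, and the exact permutation test gave p = 0.0286, the smallest that 4 against 4 can give (two-sided, 0.0429 adjusted over the 3 ratios). The ratio of *Slc40a1* to *Tfrc*, export against uptake, was 0.224 ± 0.0439 in WT and 0.107 ± 0.0371 in *mdx5cv* muscles, a log2 difference of −1.12 (exact permutation p = 0.0286, adjusted 0.0429). The exact permutation p was 0.0571 without *mdx5cv* replicate 3 (log2 difference −0.87) and without any 1 of the 4 WT muscles (−1.25 to −1.03). The ratio of *Tfrc* to *Fth1*, whose mRNAs carry iron-responsive elements at opposite ends, was 0.956 ± 0.193 in WT and 0.608 ± 0.194 in *mdx5cv* muscles. Its log2 difference of −0.68 did not pass (exact permutation p = 0.0857, adjusted 0.0857). *Mdx5cv* replicate 3, at 0.886, lay within the WT range, and without it the difference was −0.88 (exact permutation p = 0.0286). Leaving out any other muscle gave an exact permutation p between 0.0857 and 0.114.

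**Figure D3:**
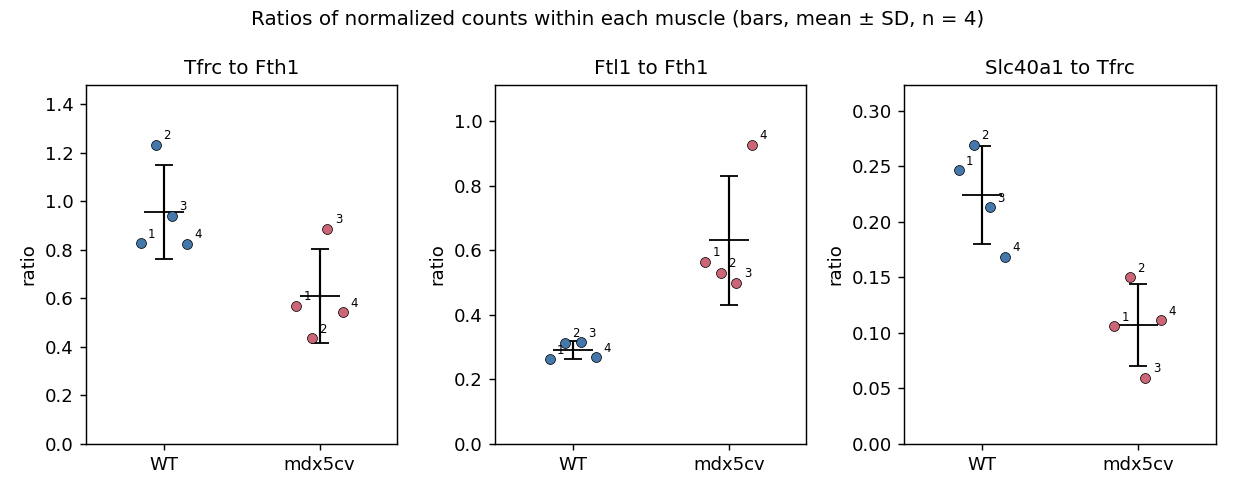
Ratios of normalized counts (vertical axes from 0) within each TA muscle, with dots numbered by replicate and bars for the mean ± SD of 4 muscles. The groups separate for *Ftl1* to *Fth1* and for *Slc40a1* to *Tfrc*, and *mdx5cv* replicate 3 (0.886) lies within the WT range for *Tfrc* to *Fth1*.

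Levels were set beside each other per kilobase, with the length taken over all annotated exons of a gene. On this scale *Mb* stood first in WT muscles at 13743 ± 3199 normalized counts per kb (SD, n = 4), before *Fth1* (683 ± 103), *Ftl1* (508 ± 48.1), *Tfrc* (363 ± 66.8) and *Hba-a1* (245 ± 52.3), each with a range apart from the next. *Hbb-bt* (67.4) and *Slc40a1* (56.4) followed with overlapping ranges, and *Hmox1* (20.7), *Alas2* (18.2) and *Cp* (16.99) overlapped at the bottom. In *mdx5cv* muscles *Mb* was still first (4612 ± 1318), but *Ftl1* (1531 ± 504) stood above *Fth1* (936 ± 36.7), with no overlap between them. This ferritin order depends on the lengths used, which were 3469 bases for *Fth1* and 1340 for *Ftl1*. An annotated *Fth1* transcript had 929 bases, and an annotated *Ftl1* transcript 968. In normalized counts *Fth1* was above *Ftl1* in every muscle, with a ratio of *Ftl1* to *Fth1* of at most 0.927. Per kilobase, *Hmox1* (39.7) overlapped with *Hbb-bt* (40.5) and was above *Slc40a1* (21.6). *Cp* (11.1) and *Alas2* (8.03) were last, with overlapping ranges.

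The muscles within a group differed in a like order for several of these genes. In *mdx5cv* muscles, replicates 1 and 4 were the lowest 2 for *Hba-a1*, *Hba-a2*, *Hbb-bs*, *Hbb-bt*, *Alas2* and *Mb*. The muscle marker *Ckm* was lowest in the same 2 muscles (108407 and 78311 normalized counts, against 130541 and 129125 in replicates 2 and 3). The split was thus not particular to oxygen and iron genes. The log2 difference from the WT mean was −1.265 and −1.491 in replicates 1 and 4 for *Hba-a1*, against −0.14 and −0.44 in replicates 2 and 3. For *Alas2* it was −1.75 and −2.16, against −0.45 and −0.74. In WT, replicate 3 was the lowest for *Hba-a1*, *Hba-a2*, *Hbb-bs*, *Hbb-bt* and *Alas2*, and also for *Fth1*, *Ftl1*, *Tfrc* and *Cp*. *Slc40a1* did not share the split among *mdx5cv* muscles, since its lowest was replicate 3 at −1.58 and the other 3 lay between −1.31 and −1.21.

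**Figure D4:**
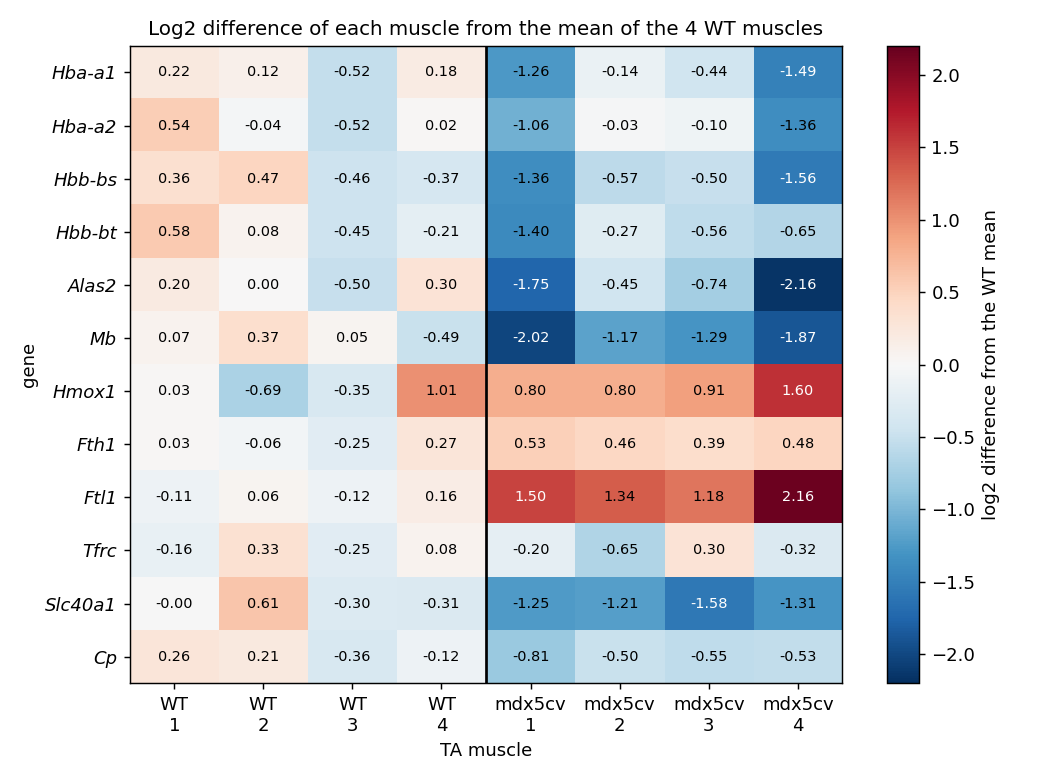
Log2 difference of each TA muscle (columns) from the mean of the 4 WT muscles for the 10 genes and the globin copies *Hba-a2* and *Hbb-bs* (rows), in color and as printed values. The *mdx5cv* columns 1 and 4 are dark blue for *Alas2* (−1.75 and −2.16) and *Mb* (−2.02 and −1.87), and *Ftl1* is red in all 4 *mdx5cv* columns (1.18 to 2.16).

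The other genes of these pathways were followed with 7 lists. The lists hold 100 symbols, some of them older names of genes also listed (*Hfe2* for *Hjv*, *Fam132b* for *Erfe* and *Fdx1l* for *Fdx2*). Of these symbols 95 were in the table and 70 were tested. Of the 70, 7 were higher and 28 lower in *mdx5cv* muscles and 35 were not called. Among all genes tested 20.9% were higher and 20.1% lower. The median of the 70 log2 fold changes was −0.21, beside 0.00 for all genes tested. How many went each way changed with the scaling, with 22 higher and 7 lower under equal totals, and 12 higher and 11 lower with the mitochondrial genome left out.

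Of the 12 heme synthesis genes, 5 were lower and 0 higher in limma (6 and 0 at an unadjusted p under 0.05, and 4 and 0 in both edgeR and DESeq2), while under equal totals 1 was lower and 1 higher. Beside the 20.1% of all genes tested that were lower, the 5 fell to 3 without *mdx5cv* replicate 2, without *mdx5cv* replicate 4 and without both replicates 4. *Alad*, the second enzyme of the pathway, was lowest at −1.08 ± 0.17 (SE, adjusted p of 0.000309), from 173 ± 34.7 to 80.8 ± 13.5 normalized counts (SD, n = 4). *Uros* fell by 0.60 and *Alas1*, the form of the first enzyme used outside red cells, fell by 0.46, from 1218 ± 199 to 882 ± 120. *Fech*, which inserts the iron into the ring, had a log2 fold change of −0.21 with an adjusted p of 0.172. Of the erythroid genes beyond the globins, *Bpgm*, whose product lowers the oxygen affinity of hemoglobin and which muscle also expresses, fell by 0.80 (adjusted p of 0.00249).

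Of the 13 genes tested for heme and hemoglobin uptake, export and breakdown, 3 were higher and 1, *Cd163*, was lower, where 20.9% and 20.1% of all genes tested were called. Under equal totals 7 were higher and 1 lower, and without both replicates 4 the number higher was 1. *Lrp1*, a receptor for heme bound to hemopexin among many other ligands, was higher by 1.11 ± 0.15 (SE, adjusted p of 0.000115), from 2278 ± 213 to 5010 ± 1353. *Blvrb*, a biliverdin reductase, rose by 0.75 and *Nfe2l2*, the factor NRF2 that drives *Hmox1* under oxidative stress, by 0.41 (adjusted p of 0.0117 for each), but neither passed without both replicates 4 (0.0655 and 0.0551). *Bach1*, the repressor of *Hmox1*, had a log2 fold change of 0.13 with an adjusted p of 0.389. Haptoglobin (*Hp*) ranged from 9.95 to 218 normalized counts, with the highest value in WT replicate 4, and was not called.

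Of the 13 genes tested for iron uptake and trafficking, 4 were higher and 1 lower, beside 20.9% and 20.1% of all genes tested. Under equal totals 9 were higher and 0 lower, and with at least 10 normalized counts required in every muscle 2 were higher. *Slc11a1*, the iron and manganese transporter of macrophage phagosomes, rose by 3.05 ± 0.41 (SE, adjusted p of 8.72e-05), and its values in the *mdx5cv* muscles (124, 116, 79.2 and 252) were in the order of the macrophage marker sum. The metal reductase *Steap2* rose by 1.258 and the iron chaperone *Pcbp1* by 1.10. *Slc39a8* rose by 1.03, at low levels of 6.62 ± 0.99 and 14.5 ± 1.67, and lost the call without *mdx5cv* replicate 2 (adjusted p of 0.0557). *Steap4* fell by 0.57 (adjusted p of 0.00575). *Slc11a2*, the transporter that brings iron out of endosomes, was at −0.02, and *Ncoa4*, which carries ferritin to the lysosome, at −0.21. Neither was called.

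Of 5 tested genes that set iron balance in the body, 3 were lower and 0 higher in limma, the same counts as in edgeR, in DESeq2 and at an unadjusted p under 0.05, beside 20.1% lower among all genes tested. *Hjv*, the hemojuvelin co-receptor that muscle expresses strongly, fell from 4573 ± 292 to 3211 ± 467 normalized counts (log2 fold change −0.52, adjusted p of 0.00387). *Hfe* fell by 0.48 and *Bmp6* by 1.0, and *Bmp2* and *Neo1* were not called. Under equal totals 1 of these 5 genes stayed lower and none was higher. Hepcidin (*Hamp*), the liver hormone that removes ferroportin from the cell surface, had no reads in 6 of the 8 muscles and at most 3.20 normalized counts. Of the 6 genes for sensing of iron in the cell, *Cisd1*, *Cisd2* and *Fbxl5* fell, by 0.54, 0.50 and 0.38 (3 lower and 0 higher in all 3 tools), whereas under equal totals none was lower and 3 were higher. The iron regulatory proteins themselves, *Aco1* and *Ireb2*, had log2 fold changes of 0.08 and 0.10 with adjusted p of 0.597 and 0.657.

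The list of mitochondrial iron and iron-sulfur cluster genes had 13 of 18 lower and 0 higher in limma (also at an unadjusted p under 0.05 and in DESeq2, and 12 and 0 in edgeR), and 2 lower and 2 higher under equal totals. Among all genes tested 20.1% were lower and 20.9% higher. The lowest were the iron importer *Slc25a28* at −0.77 ± 0.14 (SE, adjusted p of 0.000682), and the chaperones *Hspa9* at −0.71 ± 0.13 (0.000762) and *Hscb* at −0.69 ± 0.19 (0.0101), which hand over new clusters. *Slc25a37*, the importer of erythroid cells, was at 0.23 and was not called (adjusted p of 0.13). Mitochondrial transcripts took 30.0% to 38.7% of reads in WT and 25.3% to 32.1% in *mdx5cv* muscles.

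**Figure D5:**
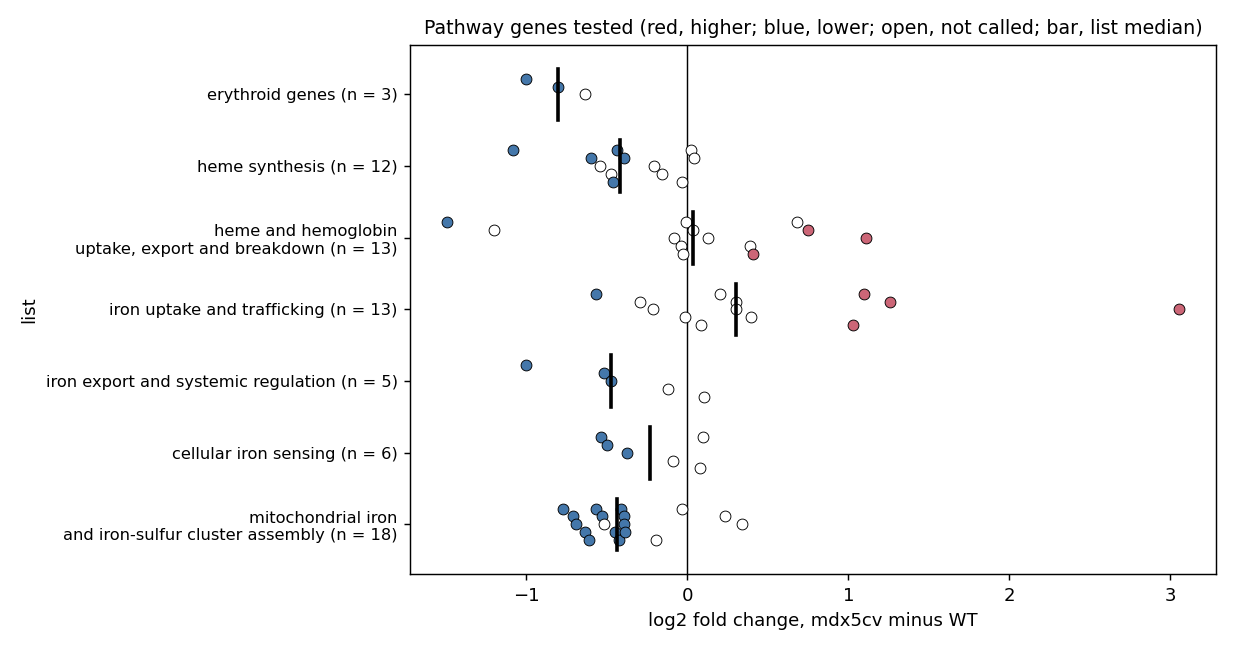
Log2 fold changes (horizontal axis) of the 70 tested genes in 7 lists, with red for higher, blue for lower, open circles for genes not called, and a bar at the median of each list. The points of the mitochondrial iron list lie mostly left of 0 (13 of 18 lower), and the point farthest to the right is *Slc11a1* at 3.05.

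Genes with the most similar pattern over the 8 muscles were looked up for 5 of the genes, by the root mean square difference of log2 values after centering, among 7641 genes with a mean of at least 100 normalized counts. For *Mb* they were *Gm44386*, *Slc47a1* and *Ephx2*, at 0.19, 0.19 and 0.20. For *Hba-a1* they were *Acot13*, *Ldhb* and *Perm1*, at 0.25, 0.26 and 0.26, in a search whose minimum level left out *Hba-a2*, *Hbb-bt* and *Alas2*. For *Hmox1* they were *Actn4*, *Plekhm1* and *Pmepa1* (0.23 to 0.26). *Fth1* and *Tfrc* had closer neighbors, namely *Hmbox1*, *Git2* and *Med13l* for *Fth1* (0.07 to 0.09) and *Rab30*, *Insig1* and *Gnptg* for *Tfrc* (0.08 to 0.15).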

How the data were processed

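RNA-seq of 4 WT and 4 *mdx5cv* TA muscles was analysed, grouped by the labelled genotype. The deposited signal is, for each gene, its read count over the size factor of that muscle, as made by the authors. The labels name TruSeq Stranded Total RNA libraries from Trizol extracts, and the submitters' processing notes name Trim Galore 0.6.4, STAR 2.6.0c, featureCounts, DESeq2 1.26.0 and mm10. The strand setting and annotation release of the counting are not given in the sources used here. Whole reads were recovered from 100% of values (within 0.01 reads), 13175524 to 14921057 per muscle. Replicates differed by more than sampling noise (chi-square per degree of freedom 8.59 to 38.5).

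Genes with a mean of at least 10 normalized counts were compared with limma 3.58.1 (R 4.3.3, variance trend, two-sided) on log2(normalized count + 1), with Benjamini-Hochberg adjustment over all 13677 genes. Calls had an adjusted p under 0.05. The 3 ratios had exact permutation tests. edgeR 4.0.16 and DESeq2 1.42.0 on recovered reads, other pseudocounts, filters and scalings, a replicate block, and each muscle left out were alternatives. On simulated data with 200 changed genes over 13553 genes, limma recovered 100% and called 12 unchanged genes. The median log2 fold change of those 200 genes was 1.99 in limma. Recovery of smaller differences, such as those of the 10 genes described, was not tested. The genes and lists were chosen with earlier results of these data known. Named list genes are the 3 highest and 3 lowest called ones, globin copies, and genes not called. *Ahsp* and *Tf* were not analysed here. Exon lengths and elements come from GENCODE M21, and promoters from RefSeq (8 of 10 genes matched).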

Additional observations from a re-analysis of the deposited data

Results flagged for a closer look

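In 7 of 54 sets of 4 values, 1 muscle stood apart from the other 3 of its group by Dixon's test, where chance alone gives about 2.7. Of the genes described, *Hba-a1* was low in WT replicate 3, at 7.10 on the log2 scale against 7.73 to 7.83 in the other WT muscles, and *Hmox1* was high in *mdx5cv* replicate 4, at 6.67 against 5.87 to 5.98. The other 5 concern whole muscles. *Mdx5cv* replicate 4 had reads in 22316 genes, against 21316 to 21429 in the other *mdx5cv* muscles, and the log2 sum of its fast glycolytic fiber markers was 18.6 against 19.2 to 19.3. *Mdx5cv* replicate 1 had a log2 sum of slow and oxidative fiber markers, which is mostly *Myh2*, of 10.3 against 12.3 to 12.6. The log2 sum of neutrophil markers, which rests on few reads, was 3.12 in WT replicate 2 against 1.64 to 1.72, and 1.51 in *mdx5cv* replicate 1 against 2.68 to 2.89.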

How the results depend on the processing

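The 10 genes gave 3 higher calls in most settings, whereas 5 lower calls were found in the main fit and in a minority of the alternatives. DESeq2 gave 6 lower, and limma without a variance trend gave 4. The number lower was 3 under equal totals, 3 with the mitochondrial genome left out of the totals, 3 without both replicates 4 (chosen after seeing the data) and 3 with a log2 fold change of at least 1. With any 1 muscle left out, 2 to 3 were higher and 4 to 6 lower. Of the pathway genes, 22 were higher and 7 lower under equal totals, 12 and 11 with the mitochondrial genome left out, and 3 lower with a log2 fold change of at least 1. Over all genes, 51.0% of calls were higher, against 86.9% under equal totals and 74.7% with the mitochondrial genome left out. *Tfrc* changed sign, to 0.14, under equal totals. *Mb*, *Fth1*, *Ftl1* and *Slc40a1* were called in all 20 alternatives, and *Hba-a1* was also lost in limma without a variance trend (adjusted p of 0.0617) and under equal totals (0.113). With each muscle left out, the *Slc40a1* to *Tfrc* log2 difference ranged from −1.31 to −0.87, with an exact permutation p of 0.0571 without *mdx5cv* replicate 3 or any 1 WT muscle, and the *Tfrc* to *Fth1* difference from −0.88 to −0.54. Deviations of same-numbered muscles from their group means had correlations of 0.05, 0.031, 0.072 and 0.146. Values for differently numbered muscles were not set beside these, so whether the numbers pair the muscles was not settled. A replicate block gave 3 higher and 5 lower of the 10 genes and 8 higher and 28 lower pathway genes. The low read numbers of *Alas2*, *Hbb-bt* and *Hmox1* limit their precision.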
